A study of Mus musculus with 8 samples.

Results

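The genes described here are the nuclear genes for oxidative phosphorylation, measured in 8 mouse livers. They were chosen by symbol, as every row of the deposited count table that begins with Nduf, Uqcr, Cox4 to Cox8 or Atp5, together with Sdha, Sdhb, Sdhc, Sdhd and Cycs. This rule found 96 genes of 25078: 40 named for complex I, 8 Ndufaf genes for complex I assembly factors, 4 for complex II, 8 for complex III, 18 for complex IV, 17 for complex V and the cytochrome c gene Cycs. It used symbols and no measured value. Transcripts of mitochondrial DNA were not analysed here, since 0 rows of the table matched the list of those genes. Cyc1, a complex III subunit whose symbol falls outside the rule, is given with the related genes.

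The livers came from male C57/BL6 mice, all fed a Western-style diet rich in fat, fructose and cholesterol for 25 weeks, a regime used to model fatty liver disease. In the wild-type group were 5 mice. In the other group were 3 mice labelled Midn hemizygotes, with Het in their titles, and here called het-labelled. By their labels these carry a global deletion of Midn, which encodes the nuclear protein midnolin, on 1 allele, so the labelled deletion is not limited to hepatocytes or any other cell type. The study asked what loss of a Midn allele does to the liver on this diet. Neither group had a control diet, and ages are not in the sources used here. The labels give no litter, cage or batch, so the p-values below measure the spread between these samples.

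Oxidative phosphorylation takes place in the inner mitochondrial membrane. Complexes I and II pass electrons from NADH and succinate to coenzyme Q, complex III hands them to cytochrome c, complex IV to oxygen, and the proton gradient built on the way drives ATP synthesis by complex V. Most subunits come from the nuclear genome, and hepatocytes, which are rich in mitochondria, use the pathway to burn fatty acids and to power gluconeogenesis and the urea cycle. In a whole-liver RNA sample, fewer cells of a type and less RNA per cell cannot be told apart.

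Total counts ran from 17508221 to 24916239 per library, and the 96 genes took 0.804% to 1.65% of them. The level of Midn itself was 50.2 ± 18.8 CPM (SD) over the 5 wild-type livers and 50.4 ± 10.7 CPM (SD) over the 3 het-labelled livers. Against all 5 wild-type livers its level did not separate the labelled genotypes (log2 difference 0.00, SE 0.30, edgeR adjusted p = 0.994). CPM here are counts scaled by the trimmed mean of M values (TMM) to a common library size. Rpph1, the RNA subunit of ribonuclease P, carries no poly(A) tail, and its share of counts varied widely although the libraries were made with an mRNA kit. It was 0.673% to 1.06% in wild-type libraries 2, 4 and 5 (the high-share set), 0.304% and 0.331% in wild-type libraries 3 and 1 (the low-share pair), and 0.229% to 0.399% in the het-labelled libraries. Midn fell with this share (log2 change per doubling −0.67, SE 0.07, edgeR adjusted p = 0.00102). With the log2 share as a covariate, its het-labelled difference was −0.57 (SE 0.11, edgeR adjusted p = 0.174). That difference was −0.54 against the low-share pair (SE 0.17, edgeR adjusted p = 0.104). Against the high-share set it was 0.40 (SE 0.19, edgeR adjusted p = 0.167). Markers of hepatocytes summed to 53248.9 to 68554.5 CPM in wild type, with 60448.0 CPM in het-labelled library 2 and 87249.7 to 96162.2 CPM in het-labelled libraries 3 and 1, and all 10 were detected. Of 7 markers of muscle and brown fat, Myh4 and Ucp1 had no count in any library, and the summed level was 0.7 to 17.7 CPM in wild type and 5.6 to 44.7 CPM in het-labelled libraries.

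Most nuclear oxidative phosphorylation genes varied together across the 8 livers, and within wild type their levels ran with the Rpph1 share. Of the 96 genes, 87 passed the filter on low counts. Among het-labelled livers their summed level was lowest, at 10050 CPM, in library 2, which had the highest share there (0.399%). The sum was 10765.1 CPM in het-labelled library 1 (0.229%) and 11872.5 CPM in het-labelled library 3 (0.288%). Wild-type library 3 had the lowest level of 76 of these 87 and wild-type library 5 the highest level of 54. These levels are TMM-scaled, with factors of 1.27 in library 3, the largest, and 0.889 in library 5. Without that scaling the 96 genes also took their smallest share of counts in library 3 (0.804%) and their largest in library 5 (1.65%). The spread of a gene, as the ratio of its highest to its lowest CPM, ran from 1.48 for Atp5o to 10.6 for Atp5l, with a median of 2.45 against 2.10 over all 14438 genes tested. The ratio was above 3 for 31 members (35.6%, against 27.1% of all genes tested) and below 2 for 29. Within wild type alone, the high-share set had on average more than 2 times the CPM of the low-share pair for 41 members. In 5 members, Ndufa10, Uqcrc1, Ndufv3, Sdha and Atp5d, the high-share set was the lower of both. The counts by library and by wild-type set were not made over all genes tested, so they are not read as particular to the members.

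**Figure D1:**
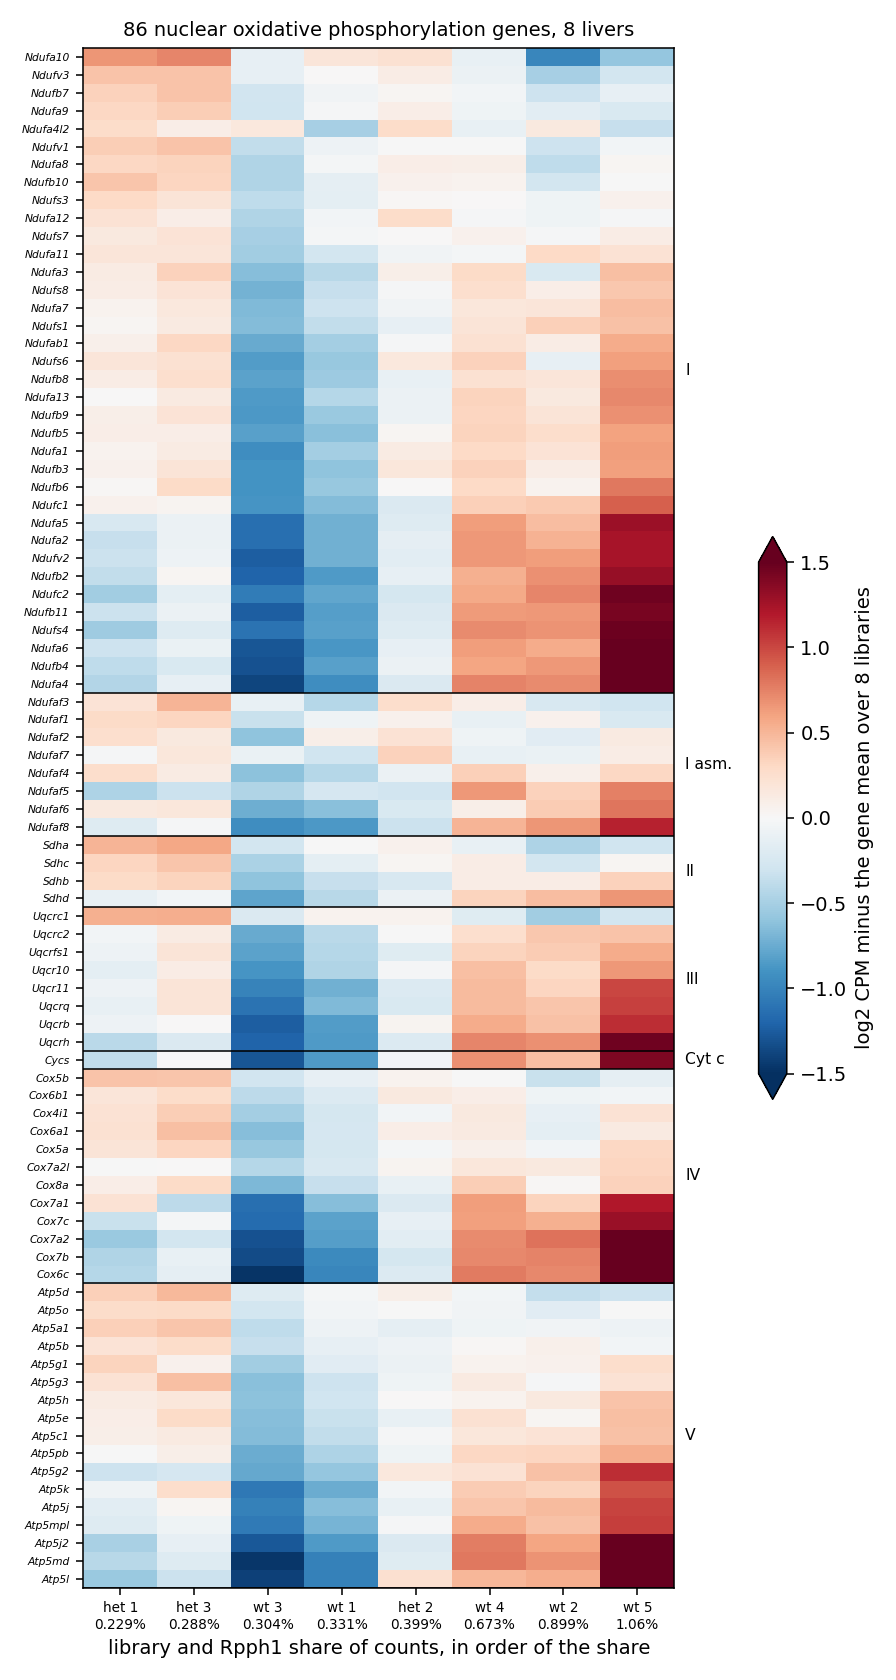
Each row is 1 of 86 of the 87 genes that passed the filter and each column 1 liver, ordered by the Rpph1 share of counts. Colour is the log2 CPM minus the gene's mean over the 8 livers. Wild-type library 3 is the lowest in 75 rows and wild-type library 5 the highest in 54, while a block at the top of several complexes is highest in het-labelled libraries 1 and 3.

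The promoters of 4 members are shown because they bear a shared motif although their transcripts went different ways: Sdhd and Ndufb4 rose with the Rpph1 share, while Sdha and Ndufa8 had levels above every wild-type library in all 3 het-labelled livers. The 4 were picked after their values were seen. Each sequence is the 250 bases before the RefSeq start on GRCm38.p6, read 5′ to 3′ on the gene's strand, with matches to the core bound by nuclear respiratory factor 1 (NRF1), spelled GCGCA, any base and GCGC on either strand, in capitals; the match in Ndufa8 is on the opposite strand. Their positions are chr13:74350241-74350490 for Sdha, chr9:50603850-50604099 for Sdhd, chr2:36049339-36049588 for Ndufa8 and chr16:37654369-37654618 for Ndufb4, and all 4 genes lie on the minus strand.
Sdha: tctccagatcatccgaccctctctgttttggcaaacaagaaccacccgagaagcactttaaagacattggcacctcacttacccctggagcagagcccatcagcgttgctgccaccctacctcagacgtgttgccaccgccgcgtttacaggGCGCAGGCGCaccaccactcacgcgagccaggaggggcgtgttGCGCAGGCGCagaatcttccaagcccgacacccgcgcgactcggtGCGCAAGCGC
Sdhd: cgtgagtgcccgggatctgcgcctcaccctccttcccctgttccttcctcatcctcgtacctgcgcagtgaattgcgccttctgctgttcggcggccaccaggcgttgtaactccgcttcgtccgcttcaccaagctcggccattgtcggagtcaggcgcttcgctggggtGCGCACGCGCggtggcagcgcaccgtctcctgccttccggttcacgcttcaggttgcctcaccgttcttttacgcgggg
Ndufa8: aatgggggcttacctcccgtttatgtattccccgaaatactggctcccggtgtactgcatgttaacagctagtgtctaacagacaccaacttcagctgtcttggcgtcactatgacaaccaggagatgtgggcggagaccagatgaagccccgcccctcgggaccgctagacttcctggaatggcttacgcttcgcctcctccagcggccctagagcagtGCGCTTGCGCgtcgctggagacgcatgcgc
Ndufb4: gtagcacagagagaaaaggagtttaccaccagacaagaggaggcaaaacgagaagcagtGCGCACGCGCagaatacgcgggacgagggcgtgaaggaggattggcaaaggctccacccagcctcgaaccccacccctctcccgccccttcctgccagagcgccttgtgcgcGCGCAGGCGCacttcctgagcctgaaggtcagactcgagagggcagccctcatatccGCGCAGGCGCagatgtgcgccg

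Sdha has 3 matches, beginning 98, 55 and 10 bases before the start, and Ndufb4 has 3, beginning 191, 79 and 22 bases before it. Sdhd has 1 match 79 bases before the start and Ndufa8 has 1 at 30 bases. A promoter of 300 bases (250 before to 50 after the start, RefSeq) was found for 77 of the 96 members, and 19 of them (24.7%) held these NRF1 letters on either strand, against 10.6% of the promoters of genes tested and 5.19% of all 27025 promoters in the table. AAGATGGCG, bound by YY1, was in 8 member promoters (10.4%, against 3.24% of genes tested), and CCGGAAGT, bound by the ETS factor GABPA among others, in 5 (6.49%, against 8.36%). Overlapping matches were counted. The NRF1 letters were in 11 of 44 promoters (25%) of members that rose with the Rpph1 share and in 7 of 29 (24.1%) of the other members tested. Levels of the factors' own transcripts were 12.4 to 19.2 CPM for Nrf1, 53.2 to 78.6 CPM for Gabpa and 34.5 to 90.5 CPM for Tfam, the mitochondrial transcription factor. Atp5j and Gabpa overlap on opposite strands of the genome. Reads from the overlap can be assigned only if counting used strand, which is not given in the sources used.

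Levels between genes can be compared only per length, by the authors' RPKM (reads scaled by exon length and library size). Members had a median of 100.4 RPKM, against 5.52 over all genes tested. By its mean Cox6c, a small subunit of complex IV, stood highest with 805.1 ± 618.1 RPKM (SD over 8 livers). Next was Ndufa4, named for complex I but known as a subunit of complex IV, with 801.8 ± 580.2. Cox6c was above Ndufa4 only in wild-type library 5, at 2135.6 against 2030.2 RPKM. Atp5md had 571.5 ± 454.2 RPKM, Uqcrh 456.9 ± 297.9 and Atp5b, the catalytic beta subunit of ATP synthase, 439.9 ± 51.0. The spread between livers was wider than the steps between these 5 genes, except that Atp5b varied much less than the others.

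Among isoform genes, the forms known from liver were the abundant ones. Cox4i1, the ubiquitous form of subunit IV, had 304.1 ± 55.5 RPKM, whereas Cox4i2, known from lung and from hypoxia, had 1 to 9 counts per library. Cox7a2 had 379.0 ± 270.9 RPKM and Cox7a1, its heart and muscle form, 3.90 ± 2.05. Cox6a1 had 203.5 ± 41.8 RPKM and Cox8a 213.4 RPKM, while their muscle forms Cox6a2 and Cox8b had at most 6 and 7 counts in a library. Cox6b1 had 310.1 ± 41.1 RPKM and the testis form Cox6b2 2 to 13 counts. Of the 3 genes for the c subunit of ATP synthase, which yield the same mature protein, Atp5g3 was the highest with 249.2 ± 51.4 RPKM, followed by Atp5g1 with 67.8 ± 10.9 and Atp5g2 with 58.5 ± 27.0, whose ranges overlap. Ndufa4l2, a paralog of Ndufa4 induced by hypoxia, had 1.10 ± 0.20 RPKM, and it overlaps Shmt2.

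In all, 9 members did not pass the filter. Ndufs5, Cox7b2 and Cox8c had no count in any library, which allows up to 3 counts, or 0.12 to 0.171 CPM depending on the library. Ndufs5 encodes an accessory subunit that liver mitochondria contain, so its row says only that it is listed at 0. Cox4i2, Cox6a2, Cox6b2, Cox8b, Ndufa11b and Ndufb4c had few counts. The deposited coordinates of 17 members overlap another gene, and whether counting used strand is not given in the sources used.

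The next question was which members followed the Rpph1 share. In an edgeR fit with the genotype label and the log2 Rpph1 share together, 53 of the 87 members rose with the share at an adjusted p under 0.05, against 17.5% of all genes tested, and 1 fell, Ndufa10, against 14.7%. The median member coefficient was 0.56 on the log2 scale per doubling of the share, against −0.03 over all genes tested. All 3 high-share libraries were above the other 5 livers for 42 members (16.2% of all genes tested), and below them for 0 (15.4%). The count rests on the wild-type libraries at the ends of the range: it was 30 without wild-type library 3, 31 without library 5 and 33 without library 1. It was 32 with an offset for exon length. The cause of this common movement was not tested.

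Complex II, the succinate dehydrogenase that also serves the citric acid cycle, has only 4 subunits and showed both patterns side by side. Sdhd, a membrane anchor, had 130.0, 239.4, 100.1, 218.6 and 275.1 CPM in wild-type libraries 1 to 5 and 160.2, 163.4 and 168.9 CPM in het-labelled libraries 1 to 3. The high-share set lay above all other livers, and the het-labelled livers lay between it and the low-share pair. Its coefficient was 0.66 per doubling of the share (SE 0.12, edgeR adjusted p = 0.00418). Sdha, the flavoprotein subunit that oxidises succinate, had 340.3, 247.7, 280.2, 314.8 and 276.7 CPM in wild-type libraries and 485.2, 355.3 and 509.2 CPM in het-labelled libraries. Here all het-labelled livers were above all wild-type livers, and the coefficient for the share was −0.17 (SE 0.12, edgeR adjusted p = 0.320). The ratio of Sdha to Sdhd in RPKM was 0.452 to 0.647 in the high-share set and 0.977 to 1.36 in the other 5 livers, without overlap. Sdhb, the iron-sulphur subunit, and Sdhc, the other anchor, lay between these and did not pass for the share (0.34, SE 0.15, and 0.10, SE 0.12).

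**Figure D2:**
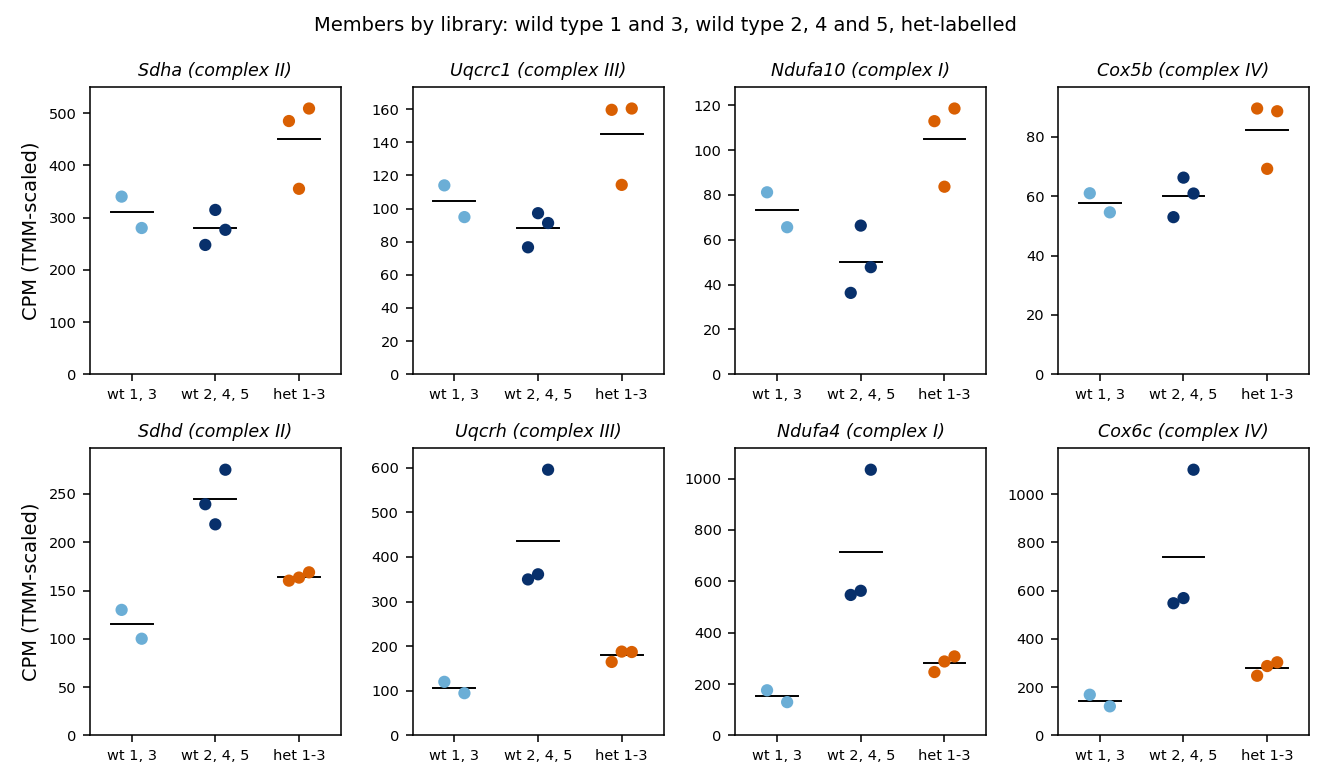
CPM of 8 members, 2 each named for complexes I, II, III and IV, with 1 point per liver and a line at the group's mean. Ndufa4, named for complex I, is known as a subunit of complex IV. Light blue marks wild-type livers 1 and 3, dark blue wild-type livers 2, 4 and 5, orange the het-labelled livers. In the upper row every het-labelled liver is above every wild-type liver, and in the lower row every liver of the high-share set is above the other 5.

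Complex I, the NADH dehydrogenase, had 24 of 37 tested members that rose with the share. Of its core subunits, which carry the flavin and the iron-sulphur clusters, Ndufs1, Ndufs8 and Ndufv2 rose. Ndufs3, Ndufs7 and Ndufv1 had coefficients of 0.12, 0.16 and 0.01 and did not pass. Among 30 members counted by name as accessory subunits 21 rose. These include Ndufa4, which is known as a subunit of complex IV. Ndufa4 had 175.7, 546.9, 129.4, 563.1 and 1034.5 CPM in wild type and 246.7, 287.8 and 307.5 CPM in het-labelled livers, so the high-share set stood above all others with a 7.99-fold range. Ndufb4, an accessory subunit of the membrane arm, had 27.1, 75.1, 19.4, 72.3 and 141.5 CPM in wild type and 36.8, 45.0 and 41.0 CPM in het-labelled livers, and a coefficient of 1.29 (SE 0.17, edgeR adjusted p = 0.00150). Ndufa10 went the other way with 81.1, 36.3, 65.6, 66.3 and 47.7 CPM in wild type and 112.9, 83.6 and 118.5 CPM in het-labelled livers. Its coefficient was −0.44 (SE 0.13, edgeR adjusted p = 0.0353). That call was lost without wild-type library 1, 2 or 5, without het-labelled library 1, and with an offset for exon length or GC content.

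Of the 8 complex I assembly factors, which help build the enzyme and are not part of it, 3 rose with the share: Ndufaf5, Ndufaf6 and Ndufaf8. Ndufaf8, the most abundant of them with 21.05 ± 10.9 RPKM, had 5.28, 15.2, 5.01, 13.7 and 21.3 CPM in wild type and 8.34, 7.64 and 9.43 CPM in het-labelled livers. The high-share set was above the others for Ndufaf8 and Ndufaf5. Ndufaf1 and Ndufaf3 had coefficients of 0.03 and 0.02.

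Complex III, the cytochrome bc1 complex, had 7 of 8 members that rose, including all 5 small subunits. Uqcrh, the hinge protein that contacts cytochrome c1, had 120.0, 349.6, 94.6, 361.1 and 595.5 CPM in wild type and 164.6, 187.8 and 186.9 CPM in het-labelled livers (coefficient 1.24, SE 0.18, edgeR adjusted p = 0.00206). The exception was Uqcrc1, a core protein on the matrix side, with 114.0, 76.6, 94.8, 97.2 and 91.3 CPM in wild type and 159.6, 114.3 and 160.4 CPM in het-labelled livers. The ratio of Uqcrh to Uqcrc1 in RPKM was therefore 11.3 to 19.8 in the high-share set and 3.03 to 4.98 in the other livers. Cycs, the soluble electron carrier between complexes III and IV, had 61.9, 152.3, 45.9, 179.5 and 293.9 CPM in wild type and 86.4, 108.4 and 112.0 CPM in het-labelled livers, with a coefficient of 1.22 (SE 0.18, edgeR adjusted p = 0.00229).

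Complex IV, cytochrome c oxidase, had 6 of 12 tested members that rose. They were the small subunits Cox6c, Cox7a2, Cox7b and Cox7c, the muscle form Cox7a1 and Cox7a2l, which is known for its part in supercomplexes. Cox7a1 had only 16 to 50 counts in a library, and its edgeR adjusted p was 0.0469. Cox6c had 168.6, 547.8, 120.4, 569.2 and 1101.3 CPM in wild type and 247.2, 287.5 and 303.1 CPM in het-labelled livers, a 9.15-fold range with the high-share set on top. Its coefficient was 1.45 (SE 0.22, edgeR adjusted p = 0.00227). Cox7a2 had the lowest p of the complex, with a coefficient of 1.35 (SE 0.17, edgeR adjusted p = 0.00138). Cox4i1, Cox5a, Cox5b, Cox6a1, Cox6b1 and Cox8a had coefficients of −0.03 to 0.40 and did not pass. The ratio of Cox6c to Cox4i1 in RPKM was 3.32 to 6.14 in the high-share set and 1.11 to 1.91 in the other 5 livers.

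Complex V, the ATP synthase, had 11 of 17 members that rose. Of the 5 subunits of its catalytic F1 head, Atp5c1 and Atp5e rose, and Atp5a1, Atp5b and Atp5d did not pass (0.03, 0.10 and −0.14). Of the other 12, which form the membrane rotor, the stator and small associated proteins, 9 rose. Atp5l, subunit g, had 51.4, 151.5, 39.3, 146.3 and 417.0 CPM in wild type and 70.3, 121.9 and 82.8 CPM in het-labelled livers. Its coefficient of 1.57 (SE 0.19, edgeR adjusted p = 0.00127) was the highest of all members. Atp5md, a small protein of synthase dimers whose gene overlaps Taf5, followed with 1.47 (SE 0.22, edgeR adjusted p = 0.00215). Atp5g2 had the smallest p of all members, with a coefficient of 0.88 (SE 0.10, edgeR adjusted p = 0.00106), while Atp5g1 and Atp5g3 did not pass.

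Members with a shorter coding sequence rose more often with the share. Coding lengths were taken from GENCODE M21, as the longest annotated for each gene. Of members with fewer than 400 coding bases, 32 of 38 rose (84.2%), with a median coefficient of 0.94. From 400 to 799 bases 15 of 31 rose (48.4%), and from 800 bases on 6 of 18 (33.3%). Over all genes tested the shares fell in the same order, with 47.3% of 634 genes below 400 bases, 31.9% of 2272 from 400 to 799 bases and 12.8% of 10680 from 800 bases on. Of the 53 rising members 21 had 400 coding bases or more, among them Ndufs1, a core subunit of complex I, with 2181. In each class the members' share was above that of all genes of the class. Spearman's rho between coding length and coefficient was −0.59 over the 87 members and −0.40 over 13586 genes, and between GC content and coefficient −0.35 and −0.51. These are descriptions across genes of the same 8 libraries, and genes are not independent replicates.

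**Figure D3:**
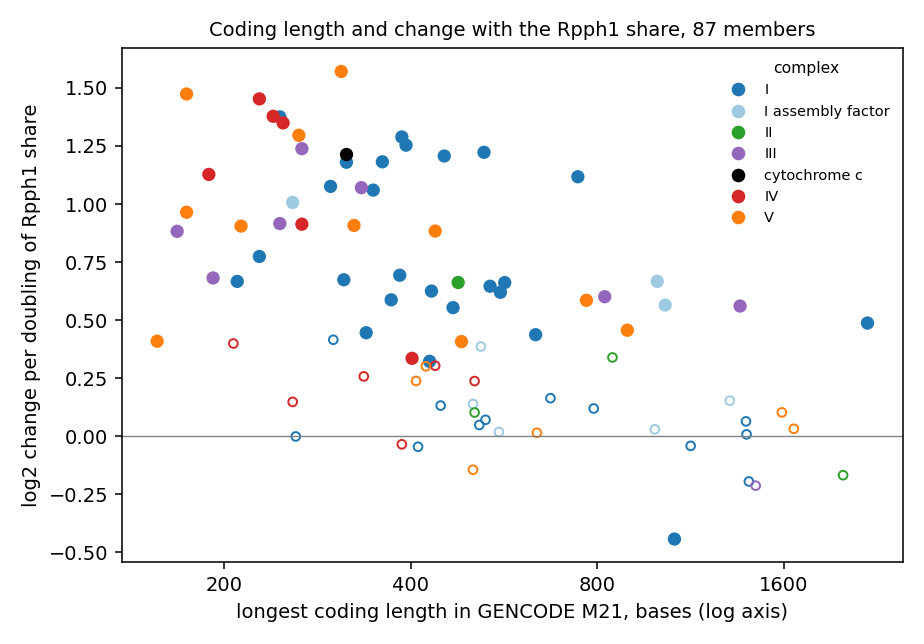
Each point is 1 of the 87 members, placed by its coding length in bases (log axis) and its log2 change per doubling of the Rpph1 share, coloured by complex. Filled points passed an adjusted p of 0.05 in edgeR. Below 400 bases 32 of 38 points are filled, and the only filled point under the zero line is Ndufa10.

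Related genes were read from fixed lists against the 17.5% of all genes tested that rose with the share and the 14.7% that fell. Of 41 other assembly factors and subunits tested 20 rose and 1 fell, with a median of 0.36 per doubling. Of 78 mitochondrial ribosomal protein genes 31 rose and 2 fell (median 0.25). Of 18 citric acid cycle genes 6 rose and 2 fell (0.11), of 12 coenzyme Q synthesis genes 2 rose and 0 fell (0.11), and of 6 ADP/ATP and phosphate carrier genes 1 rose and 1 fell (0.01). Of 80 cytosolic ribosomal protein genes, with a median coding length of 468 bases against 432 for the members, 52 rose and 0 fell (0.40). Of 17 regulators of mitochondrial biogenesis 2 rose and 4 fell (0.16). Cyc1, the cytochrome c1 gene, rose (0.40, SE 0.13, edgeR adjusted p = 0.0452), as did Tfam (0.58, SE 0.13, edgeR adjusted p = 0.0102) and Atpif1, the inhibitor of ATP synthase (0.53, SE 0.11, edgeR adjusted p = 0.00832). Ppargc1a, a coactivator of mitochondrial genes (0.22, SE 0.10), Esrra, a nuclear receptor that works with it (0.23, SE 0.13), Gabpa (0.16, SE 0.09) and Nrf1 (−0.23, SE 0.09) did not pass.

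The comparison the study was built on, het-labelled against wild type, called no member. In edgeR 0 of 87 members passed in either direction, against 0.0% of all genes tested, and the smallest adjusted p of a member was 0.259. DESeq2 also called 0 members, against 0.628% of genes higher and 0.469% lower, with a smallest adjusted p of 0.0805. At an unadjusted p under 0.05 edgeR had 14 members higher, against 10.3% of all genes tested, and 0 lower, against 5.43%. The 14 members are 16.1% of 87. DESeq2 had 12 higher (6.96% of its genes) and 1 lower (7.17%). The median log2 difference of members was 0.05, against 0.00 over all genes tested. It was −0.09 with library size as the only scaling, which moved the median of all genes to −0.18, −0.01 in DESeq2, −0.14 without wild-type library 3 and −0.06 without wild-type library 1, so its sign depended on these choices. It was higher, at 0.32, with an offset for exon length and, at 0.21, without wild-type library 5.

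The 14 members were Ndufa10, Ndufa8, Ndufa9, Ndufb7, Ndufb10, Ndufv1 and Ndufv3 of complex I, the assembly factor genes Ndufaf1 and Ndufaf3, Sdha and Sdhc, Uqcrc1, Cox5b and Atp5d. None of them was among the 53 that rose with the Rpph1 share, and their coefficients for it ran from −0.44 to 0.10. The design works against such an overlap. A gene that rises with the share is high in the high-share wild-type set, which hinders a call higher in het-labelled livers. The median genotype difference of the 53 was −0.27. The overlap was not counted over all genes tested, so no separate classes of members are read from it. All 14 kept a positive difference with library size alone, where 0 reached an unadjusted p under 0.05. The count of 14 was 9 when either wild-type library 3 or het-labelled library 1 was left out, 6 when het-labelled library 3 was left out, 27 with an offset for exon length and 8 with an offset for GC content. All 3 het-labelled livers were above all 5 wild-type livers for 16 members (7.54% of all genes tested), 12 of them among the 14, and below them for 0 (2.32%). Hepatocyte markers, given above, were likewise highest in het-labelled libraries 1 and 3, and bile duct markers summed to 146.6 and 158.0 CPM there, against 406.2 to 890.0 CPM in wild type and 741.8 CPM in het-labelled library 2. Their part in these differences was not tested.

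Ndufa10, an accessory subunit of complex I, had the largest difference among members that were higher in het-labelled livers, 59.4 ± 17.5 CPM in wild type (SD, n = 5) against 105.0 ± 18.7 CPM in het-labelled livers (SD, n = 3), or 0.82 on the log2 scale (SE 0.25, edgeR adjusted p = 0.259). Sdha had 292.0 ± 36.0 against 449.9 ± 82.8 CPM (0.62, SE 0.18, edgeR adjusted p = 0.259). Uqcrc1 had 94.8 ± 13.4 against 144.8 ± 26.4 CPM (0.61, SE 0.17, edgeR adjusted p = 0.259). In all 3 genes het-labelled library 2 lay closest to the wild-type range, at 83.6, 355.3 and 114.3 CPM against wild-type maxima of 81.1, 340.3 and 114.0 CPM. Ndufaf3 differed by 0.52 (SE 0.18), Ndufv3 by 0.51 (SE 0.15), Atp5d, the delta subunit of the F1 head, by 0.50 (SE 0.15), and Cox5b, a zinc-binding subunit of complex IV, by 0.48 (SE 0.14). Ndufaf5, which modifies a complex I subunit during assembly, had the smallest p among members that were lower, with 6.97 ± 2.43 CPM in wild type and 4.47 ± 0.28 CPM in het-labelled livers (−0.64, SE 0.30, edgeR adjusted p = 0.338).

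Because the wild-type livers differed so much in the Rpph1 share, the genotype comparison was also read against each part of them. These comparisons use the same 3 het-labelled livers, so they are not independent of each other. The parts were also set by the share, with which 53 members rose. For those members the split itself gives a lower wild-type level in the low-share pair and a higher level in the high-share set. The opposite directions of these comparisons are therefore not read as separate support for a genotype difference. Against the low-share pair, whose share was closest to that of the het-labelled livers, 75 of 87 members were higher at an unadjusted p under 0.05 (16.7% of all genes tested) and 0 were lower (14.9%). None passed after adjustment, where edgeR called 0.0956% of genes higher and 0.0478% lower, and the smallest adjusted p of a member was 0.0638. The median difference was 0.55 on the log2 scale, 86 members had a positive value, and all 3 het-labelled livers were above both livers of the pair for 84 (31.5% of all genes tested). The exception in sign was Ndufaf5, at −0.07. The size of these differences depends on scaling. TMM factors over the 8 livers were 1.14 and 1.27 in wild-type libraries 1 and 3, and 0.871, 1.06 and 0.852 in het-labelled libraries 1 to 3. As shares of all counts, without TMM scaling, the 96 genes took 0.894% and 0.804% in the pair. They took 0.937%, 1.07% and 1.01% in het-labelled libraries 1 to 3. Library size alone was not run for this comparison. By complex, the members higher at an unadjusted p under 0.05 were 35 of 37 in complex I, 5 of 8 among assembly factors, 3 of 4 in complex II, 7 of 8 in complex III, 11 of 12 in complex IV and 13 of 17 in complex V, and Cycs. In the same comparison 48 of 78 mitochondrial ribosomal protein genes, 7 of 18 citric acid cycle genes and 6 of 80 cytosolic ribosomal protein genes were higher at that level. Markers of other cell types also differed from the pair at an unadjusted p under 0.05. Lower in het-labelled livers were 4 of 8 T and NK cell markers (summed level 23.4 and 24.5 CPM in the pair and 8.05 to 14.7 CPM in het-labelled livers), 3 of 6 bile duct markers (474.9 and 890.0 against 146.6 to 741.8 CPM), 4 of 9 stellate cell markers (1761.5 and 1915.3 against 814.4 to 1821.0 CPM) and 1 of 4 B cell markers. Higher were 2 of 10 hepatocyte markers, 3 of 12 macrophage markers, 2 of 6 markers of sinusoidal endothelium, 1 stellate cell marker, and the 1 tested marker each of erythroid cells and of muscle and brown fat. Every marker of these lists had counts in at least 1 library, except 4 erythroid and 2 muscle and brown fat markers at 0 in all libraries. Their part in the members' differences was not tested.

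Against the high-share set the median difference was negative, at −0.28 on the log2 scale. There 28 members were lower in het-labelled livers at an adjusted p under 0.05 (10.5% of all genes tested) and 5 higher (8.4%). The lower members were led by Atp5md (−1.47, SE 0.30), Cox7a2 (−1.46, SE 0.26), Cox6c (−1.45, SE 0.29), Cox7b (−1.42, SE 0.27) and Ndufa4 (−1.39, SE 0.27), each with an edgeR adjusted p of 0.0283. The higher members were Ndufa10 (1.02), Uqcrc1 (0.66), Sdha (0.64), Ndufv3 (0.56) and Atp5d (0.50), with edgeR adjusted p of 0.0295 to 0.0483. With all 8 livers and the log2 Rpph1 share as a covariate, 74 members were higher in het-labelled livers at an unadjusted p under 0.05 (17.0% of all genes tested) and 0 lower (7.94%), with a median of 0.58. Again 0 passed after adjustment (0.0% of all genes tested in each direction), and the smallest adjusted p of a member was 0.174.

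**Figure D4:**
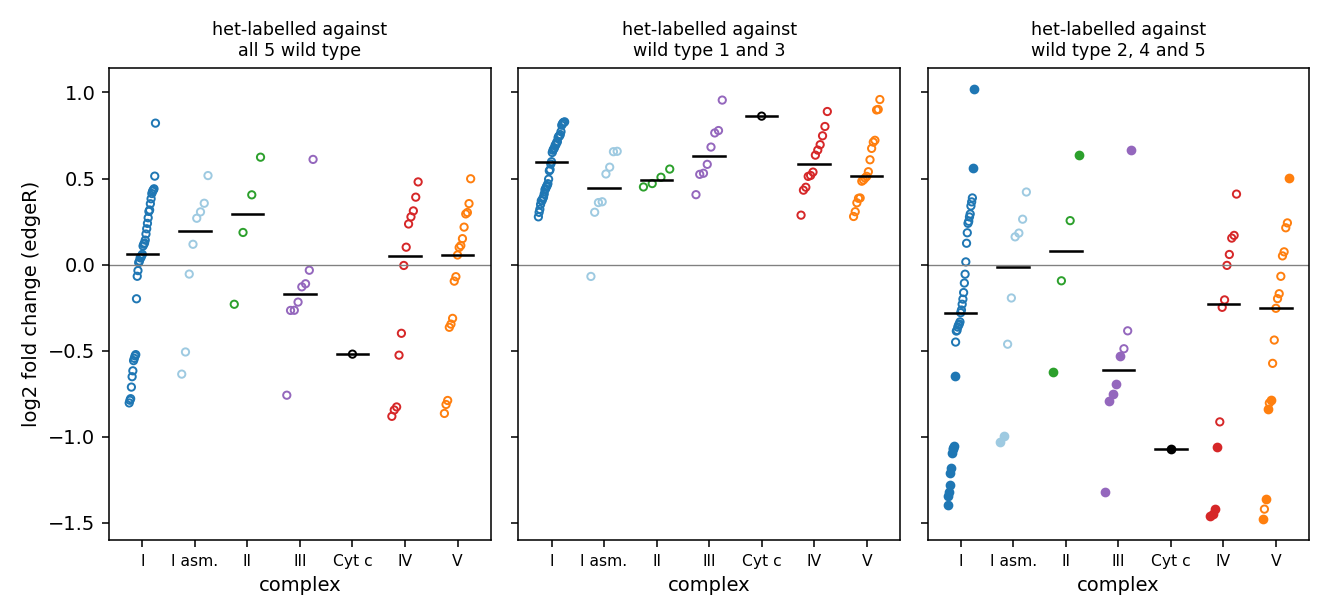
Log2 fold change of each of the 87 members, het-labelled against all wild-type livers (left), against wild-type livers 1 and 3 (middle) and against wild-type livers 2, 4 and 5 (right), by complex. Bars are medians and filled points passed an adjusted p of 0.05 in edgeR. In the middle panel 86 of 87 points lie above 0, while in the right panel 28 filled points lie below 0 and 5 above.

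Cox6c, which rose with the Rpph1 share, stood in het-labelled livers between the low-share pair and the high-share set, while Sdha and Uqcrc1 stood above both. Cox6c had a mean of 144.5 CPM in the low-share pair, 279.3 CPM in het-labelled livers and 739.4 CPM in the high-share set. Sdha had means of 310.3, 449.9 and 279.8 CPM in the same order, and Uqcrc1 104.4, 144.8 and 88.4 CPM. The summed CPM of complex IV genes was 1258.4, 2479.5, 1000.2, 2617.7 and 4054.3 in wild-type libraries 1 to 5 and 1717.2 to 1983.8 in het-labelled libraries, so every het-labelled liver lay between the low-share pair and the high-share set. For complexes I, III and V the sums were ordered in the same way, except that for complex V het-labelled library 3 (3991.7 CPM) was above wild-type libraries 2 and 4 (3939.9 and 3981.3 CPM). For complex II the sums were 548.7 to 837.8 CPM in wild type and 949.6, 746.3 and 997.0 CPM in het-labelled libraries 1 to 3, so library 2 lay within the wild-type range.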

How the data were processed

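Messenger RNA of 8 livers was sequenced from KAPA mRNA HyperPrep libraries, per the labels' protocols. The submitters' processing notes name the build mm10 and the tools STAR, HTSeq and bcl2fastq 2.18.0.12. Strand use, counting mode and annotation are not stated in those notes. The authors deposited raw counts per gene and RPKM values, and 0 sample columns were left unused. Groups came from the genotype label. Replicates were numbered in accession order and pair nothing.

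Counts were filtered with filterByExpr (minimum count 10, minimum total 15), scaled by TMM and tested over 14438 genes with edgeR 4.0.16's robust quasi-likelihood test, two-sided, with Benjamini-Hochberg adjustment at 0.05. The fits held the genotype label alone, or with the log2 Rpph1 share of counts. The standard error is the log2 change divided by the root of the F statistic. The fit was tested on simulated counts, with genes drawn independently at a common dispersion. Such counts hold no movement shared by many genes, so they do not show how the fit handles it here. CPM divide each count by its TMM-scaled library size, and RPKM served only for levels between genes.

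Alternatives were DESeq2 1.42.0, limma 3.58.1 (voom, or log2 RPKM with pseudocounts of 0.1 and 1), other scalings and filters, an exon length offset, left-out libraries and, chosen after seeing the data, a GC offset. Members, gene lists and the split of wild-type livers were chosen with earlier results of these data known. Named were, per complex, the 3 members with the smallest genotype p and the 2 highest by RPKM, the 3 with the smallest p for the Rpph1 share in each direction, complex II, Cycs, isoform genes and fixed regulators. Other members are named in counts, or after their values were seen. Counting error alone is covered by the limit for a count of 0.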

Additional observations from a re-analysis of the deposited data

Results flagged for a closer look

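Atp5a1, the alpha subunit of the F1 head of ATP synthase, had 495.5 CPM in wild-type library 3, far below the other wild-type libraries, which lay between 608.7 and 621.5 CPM. The gap was 0.898 of the group's range, above the critical value of 0.71 for 5 samples. A gap above that critical value is seen by chance in about 1 in 20 groups, and wild-type library 3 was the lowest of all 8 livers for 76 of the 87 members tested. These CPM are TMM-scaled, with a factor of 1.27 in library 3 and 0.889 to 1.14 in the other wild-type libraries. Before scaling Atp5a1 had 13265 of 21064473 counts in library 3. The others had 10175 to 13707 counts, of totals from 18687680 to 19813309. Without TMM scaling library 3 was not the lowest of the wild-type libraries for Atp5a1.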

How the results depend on the processing

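No paired analysis was possible because the replicate numbers were given in accession order and the labels share none across genotypes. By the genotype label, 0 members passed after adjustment under every setting run except without wild-type libraries 1 and 3, where 33 did. The count of members higher at an unadjusted p under 0.05 (14) was 0 with library size alone, 27 with the exon length offset, 8 with the GC content offset, 74 with the Rpph1 share as covariate, 75 without wild-type libraries 2, 4 and 5, 8 without wild-type libraries 1 and 3, and 6 to 17 with 1 library left out. The count lower (0) was 1 with library size alone, DESeq2 and limma on log2 RPKM with either pseudocount, 40 without wild-type libraries 1 and 3, and 0 to 5 with 1 library left out. The median difference (0.05) was 0.58 with the Rpph1 share as covariate, 0.55 without wild-type libraries 2, 4 and 5, −0.28 without wild-type libraries 1 and 3, 0.32 with the exon length offset, and −0.14 (wild-type library 3) to 0.21 (wild-type library 5) with 1 library left out. For the Rpph1 share, members called higher (53) were 32 with the exon length offset and 30 to 62 with 1 library left out. Members called lower (1) were 6 with library size alone, 0 with the exon length offset, 0 with the GC content offset, and 0 to 1 with 1 library left out. The causes were not tested. Among named genes, no call changed sign: of the values for the Rpph1 share 26 lost and 13 gained a call, and of those by genotype 19 gained one. The 9 members under the filter were not tested in the edgeR fits reported. DESeq2 gave 6 of them a p-value for the genotype label, the smallest 0.0883 for Cox6b2 (adjusted p = 0.366).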
